A study of Mus musculus with 15 samples.

Results

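The genes described here are 8 mouse genes of the machinery by which macrophages take up dying cells, a process called efferocytosis: Axl, Mertk, Gas6, Pros1, Timd4, Stab2, Mfge8 and Itgav. They are 8 of the 21938 protein-coding genes of the GENCODE M21 annotation on chromosomes 1 to 19, X and Y, and all 8 were found in it. The genes were chosen with results from these same libraries known, including the difference between genotypes at some of them, so their values are a description and were not tested. For each gene a window was taken from 5 kb upstream of the start site to the end of the body, and the measure was the percent of this window covered by enriched regions in each library.

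Chromatin was profiled by CUT&RUN, in which antibody-tethered nuclease cuts out the DNA around a target for sequencing, in bone marrow-derived macrophages (BMDMs) from mice of C57BL/6 background aged 8 to 10 weeks and of both sexes. Wild-type (WT) cells carried floxed alleles of H3f3a and H3f3b, the pair of genes that encode the histone variant H3.3, and no Cre. H3.3 conditional knockout (cKO) cells carried the same floxed alleles and LysM cre/cre, so that Cre was expressed from the myeloid gene Lyz2. The H3.3-HA cells carried an HA tag on H3f3b and kept H3.3. H3.3 encoded by H3f3a was untagged there, and no H3.3-HA library was made from cKO cells. Acetylation of histone H3 at lysine 27 (H3K27ac), found at active promoters and enhancers, and trimethylation at lysine 36 (H3K36me3), laid down along transcribed gene bodies, were each profiled in 2 WT and 2 cKO libraries, beside 2 libraries of H3.3-HA. These 10 libraries have 1 region list each, and the other 5 samples are IgG controls that entered as the background of the calls. The sources used here do not say whether replicates came from separate animals.

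Dying cells expose phosphatidylserine, which macrophages bind directly through receptors such as TIM-4 and stabilin-2 or through soluble bridging proteins. The TAM receptors Axl, Mertk and Tyro3 are receptor tyrosine kinases that engage phosphatidylserine through the ligands Gas6 and protein S. Mertk is known as a receptor of resting and tolerogenic macrophages, and Axl as a receptor induced by inflammatory signals and interferons. Mfge8 bridges phosphatidylserine to integrins that contain the αv subunit encoded by Itgav.

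Depth and the extent of the lists differed between libraries. The lists were called from 5365319 to 29988098 tags per library. For H3K36me3 both cKO libraries had more tags (23782914 and 23503055) than both WT libraries (15086387 and 14027132). For H3K27ac the groups overlapped, with 28366343 and 16444864 tags in WT and 29988098 and 25560110 in cKO. The share of tags in regions was 24.1% and 21.5% in WT and 11.8% and 17.8% in cKO for H3K27ac. For H3K36me3 it was 47.1% and 50.2% in WT and 19.3% and 46.5% in cKO. The part of depth in the values below was not tested. H3K27ac regions covered 89.6 and 74.8 Mb in WT and 46.2 and 62.0 Mb in cKO, so lower coverage in cKO was common among all genes. H3K36me3 regions covered 163.6 and 170.5 Mb in WT, 90.7 Mb in cKO replicate 1 and 163.5 Mb in cKO replicate 2. The IgG control, the presence of Cre and its insertion at Lyz2 also differed by genotype. Their part in any difference cannot be told apart from that of H3.3. The lists hold no height per region, and in bulk chromatin fewer cells with a mark and less of the mark per cell cannot be told apart. For comparisons of 2 against 2 libraries, the smallest two-sided exact permutation p is 0.333.

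All 10 macrophage markers examined, among them Adgre1, Csf1r and Spi1, had an H3K27ac and an H3K36me3 region in at least 1 library. The H3K27ac regions over these 10 genes summed to 132.2 and 104.4 kb in WT and to 65.9 and 68.9 kb in cKO. Of these, Mrc1 had 40.85 and 36.23 kb in WT and 6.87 and 4.90 kb in cKO, while coverage of Cd68 was higher in both cKO libraries and the groups overlapped at 5 markers. The H3K36me3 regions over the 10 genes summed to 268.9 and 274.7 kb in WT and to 279.2 and 319.2 kb in cKO. Of 15 markers of other cells, 5 had an H3K27ac region in at least 1 library, and their summed length was 1.11 and 1.48 kb in WT and 2.41 and 5.75 kb in cKO. Cd3d, a T cell gene, had H3K27ac regions in both cKO libraries and in neither WT library. The neutrophil gene Elane had them in all 4, with mean coverage of 11.6% in WT and 15.5% in cKO. Cd79a, Mpo and Flt3 had them in some of the 4. The other 10 markers, among them Cd3e, Pax5, Ly6g, Col1a1 and Pdgfra, were at 0 in all 4. The windows of Cd3d (Cd3g) and Elane (Prtn3) overlap other genes. At Lyz2, where Cre was inserted, H3K27ac coverage was 94.2% and 88.4% in WT and 28.1% and 24.4% in cKO. No list had a region at the floxed exon 2 of H3f3a, whereas exon 1 of H3f3b was overlapped by H3K27ac regions in both cKO libraries and in neither WT library, and exon 4 by H3K36me3 regions in all 4. The lists therefore do not show the deletion, and cKO below means the libraries labelled cKO. The study checked its cKO BMDMs for loss of H3.3 transcript and protein by other assays, not analysed here, and describes H3f3b deletion as complete in some samples and partial in others. The part of other cells or of incomplete deletion in the values below was not tested.

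Across the 8 genes, Axl stood alone as the gene with more of both marks in cKO. H3K27ac regions were present at 7 genes in at least 1 library, all but Mfge8. Coverage was higher in both cKO libraries than in both WT libraries at 1 of these 7, Axl, against 17.4% of the 12767 protein-coding genes with an H3K27ac region. It was lower in both cKO libraries at 5 of 7, Mertk, Gas6, Pros1, Stab2 and Itgav, against 38.2% of all genes. H3K36me3 regions were present at 6 genes, all but Timd4 and Stab2. Coverage was higher in both cKO libraries at 1 of these 6, Axl again, against 7.85% of the 11975 genes with an H3K36me3 region. It was lower in both cKO libraries at 2 of 6, Pros1 and Mfge8, against 37.7% of all genes, and the groups overlapped at Mertk, Gas6 and Itgav. The median difference, cKO mean minus WT mean, was -2.74 percentage points for H3K27ac over the 7 genes with a region and -1.02 points over all genes with a region. For H3K36me3 it was -1.52 points over the 6 genes with a region and -4.99 points over all such genes. The genes were selected on this contrast, so nothing is read from these counts beyond the description.

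**Figure D1:**
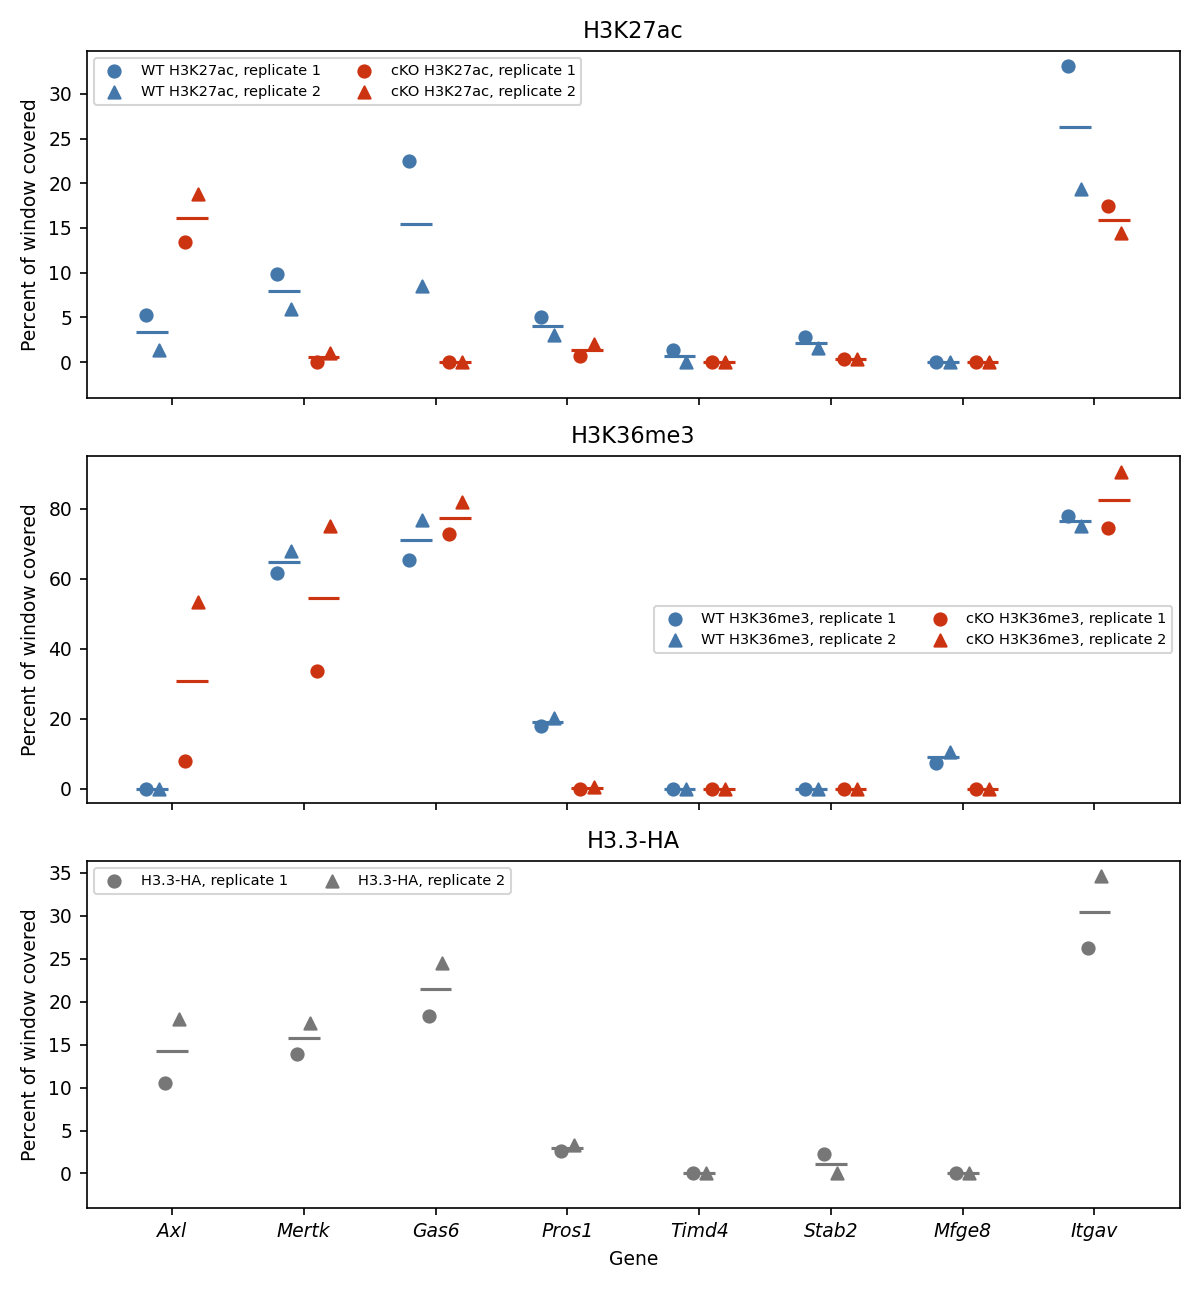
Percent of each gene window (body plus 5 kb upstream, y axis) covered by called regions, for the 8 genes (x axis) in each of the 10 libraries. Circles are replicate 1, triangles replicate 2 and horizontal bars the mean of the 2 libraries; at Axl both cKO points lie above both WT points for H3K27ac and H3K36me3.

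The promoters of the 5 genes that had an H3K27ac region within 1 kb of the start site in any library are shown. The Axl promoter is overlapped by H3K27ac regions in both cKO libraries and in neither WT library. Each is the 250 bases before the RefSeq start (GRCm38.p6, the build called mm10), written from 5′ to 3′ on the strand of the gene. Capitals mark matches, on either strand, to the core of the interferon-stimulated response element (GAAANNGAA), an ETS core with the flank of PU.1 (GAGGAA), the AP-1 site (TGANTCA) or the GC box bound by Sp factors (GGGCGG). All 8 genes matched an entry of the RefSeq promoter table.
Axl promoter (chr7:25788734-25788983, minus strand): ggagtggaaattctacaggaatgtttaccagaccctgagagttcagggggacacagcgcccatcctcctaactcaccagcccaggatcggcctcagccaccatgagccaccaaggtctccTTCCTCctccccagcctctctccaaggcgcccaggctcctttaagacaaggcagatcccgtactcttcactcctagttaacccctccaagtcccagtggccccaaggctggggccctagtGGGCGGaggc
Mertk promoter (chr2:128698665-128698914, plus strand): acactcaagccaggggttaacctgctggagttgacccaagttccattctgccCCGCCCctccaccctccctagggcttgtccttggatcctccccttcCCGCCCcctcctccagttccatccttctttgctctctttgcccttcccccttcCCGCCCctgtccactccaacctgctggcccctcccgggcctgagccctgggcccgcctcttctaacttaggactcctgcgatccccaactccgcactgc
Gas6 promoter (chr8:13494536-13494785, minus strand): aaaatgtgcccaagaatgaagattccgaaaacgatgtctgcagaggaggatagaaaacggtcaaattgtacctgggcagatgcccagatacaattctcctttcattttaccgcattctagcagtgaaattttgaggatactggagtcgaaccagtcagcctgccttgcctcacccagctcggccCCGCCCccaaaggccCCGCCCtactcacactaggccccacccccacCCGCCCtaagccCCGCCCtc
Pros1 promoter (chr16:62854057-62854306, plus strand): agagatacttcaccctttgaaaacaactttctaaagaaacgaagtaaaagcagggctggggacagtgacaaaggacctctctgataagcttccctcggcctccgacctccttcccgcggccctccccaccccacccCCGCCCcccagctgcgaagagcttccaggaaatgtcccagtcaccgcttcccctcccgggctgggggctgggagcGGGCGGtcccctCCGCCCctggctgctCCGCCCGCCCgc
Itgav promoter (chr2:83724147-83724396, plus strand): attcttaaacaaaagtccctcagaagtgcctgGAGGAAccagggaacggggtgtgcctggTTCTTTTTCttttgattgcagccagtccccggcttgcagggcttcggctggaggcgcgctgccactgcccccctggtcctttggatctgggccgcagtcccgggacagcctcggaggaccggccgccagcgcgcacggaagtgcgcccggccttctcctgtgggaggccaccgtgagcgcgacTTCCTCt
Axl held 1 ETS match and 1 GC box, and Mertk 3 GC boxes. Gas6 held 4 and Pros1 5 GC boxes, some of which overlap each other in Pros1. Itgav held 2 ETS matches and 1 match to the interferon element, and no GC box. None of the 5 held an AP-1 match. Among 32851 promoters of the same length, 7.13% held the interferon element, 23.3% the ETS core, 6.75% the AP-1 site and 32.7% the GC box. These matches are letters in a window and were not tested for use by any factor.

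Axl encodes a TAM receptor tyrosine kinase with high affinity for Gas6. The gene spans chr7:25757273-25788705 on the minus strand (31.4 kb, 20 exons). H3K27ac covered 5.24% and 1.38% of its window in WT replicates 1 and 2, and 13.4% and 18.8% in cKO replicates 1 and 2. The groups did not overlap, at 3.31% ± 2.73 in WT and 16.1% ± 3.78 in cKO (mean ± SD, n = 2), and the difference was 12.8 percentage points. By replicate number the differences were 8.20 and 17.4 points. With 20 kb on both sides of the gene the difference was 5.57 points, and by number of regions the groups overlapped, with 3 and 1 in WT and 2 and 4 in cKO.

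This H3K27ac difference sat largely at the start of Axl. A region at chr7:25785700-25788980, 3281 bp long and running from 0.3 kb before to 3.0 kb after the start site, was called in both cKO libraries (3204 and 3268 bp) and in neither WT library. It overlaps the Axl promoter shown above and the first exons. It was the only gained H3K27ac region among the 8 genes, that is, called in both cKO and no WT library, and 17.3% of all genes with an H3K27ac region held a gained region. Just downstream, in intron 4 (chr7:25782731-25785179), WT replicate 1 had 501 bp, WT replicate 2 none, and the cKO libraries 1693 and 2449 bp. The WT regions of Axl were short, from 501 to 780 bp, and none lay within 1 kb of the start site. At intron 6 (chr7:25776475-25777266) a region was present in both WT libraries and in cKO replicate 2.

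H3K36me3 was not called over Axl in either WT library, where its coverage was 0% in both. In cKO it covered 7.98% in replicate 1 and 53.3% in replicate 2, with a mean of 30.7% ± 32.1 (SD, n = 2). Both cKO values were above both WT values, but they differed from each other by more than the lower of them, and cKO replicate 1 was the library with the least H3K36me3 coverage genome-wide. The mean difference of 30.7 points became 53.3 points without cKO replicate 1 and 7.98 points without cKO replicate 2. Gained H3K36me3 regions were found at Axl alone among the 8 genes, against 8.47% of all genes with an H3K36me3 region. The larger, chr7:25760482-25775407, ran from 13.3 to 28.2 kb after the start site, of which cKO replicate 1 covered 2408 bp and cKO replicate 2 all 14926 bp. The smaller, chr7:25786380-25787147, lay 1.6 to 2.3 kb after the start site, inside the gained H3K27ac region, with 501 bp in each cKO library.

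**Figure D2:**
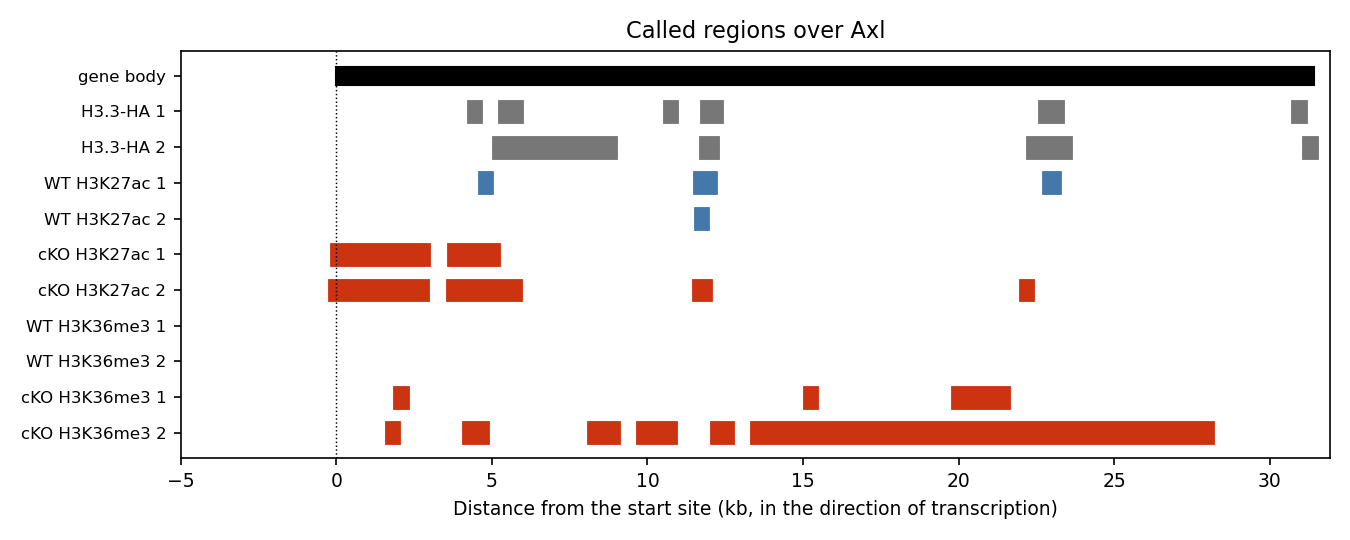
Regions called over Axl in each library, by distance from the start site in kb (x axis) and library (y axis, numbers are replicates), with the gene body in black. Boxes run to scale; H3K27ac boxes across the start site and all H3K36me3 boxes are in cKO libraries.

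H3.3-HA covered 10.6% and 18.0% of the Axl window, in 6 and 4 regions. These regions lay in introns 4, 6 and 14 and at exon 20, and none was within 1 kb of the start site. The gained H3K27ac region at the start site overlapped no H3.3-HA region in either library. The bases covered by H3.3-HA in both libraries (2360 bp) shared 307 bp with the 501 bp of H3K27ac called in both WT libraries, and 50 bp with the 4884 bp called in both cKO libraries.

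Mertk encodes the second TAM receptor of the set and spans chr2:128698956-128802894 on the plus strand (103.9 kb, 19 exons). Its H3K27ac coverage was 9.84% and 5.95% in WT replicates 1 and 2, 0% in cKO replicate 1 and 1.04% in cKO replicate 2. The direction was opposite to that of Axl, with both cKO values below both WT values, at 7.89% ± 2.75 in WT and 0.519% ± 0.733 in cKO (mean ± SD, n = 2). The difference was -7.37 percentage points, and by replicate number -9.84 and -4.91 points. WT replicate 1 had 8 regions and WT replicate 2 had 4, while the cKO libraries had 0 and 2.

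Of the 8 merged H3K27ac regions of Mertk, 2 were lost, that is, called in both WT and neither cKO library. The larger lay in intron 1 (chr2:128708217-128711489, 9.3 to 12.5 kb after the start site), with 3273 and 2791 bp in WT. The smaller lay in intron 5 (chr2:128750505-128751517), with 905 and 940 bp in WT. Both lost regions overlapped H3.3-HA in both libraries, by 2066 and 1985 bp in intron 1 and by 898 and 907 bp in intron 5. At the start site of Mertk an H3K27ac region was called in WT replicate 1 only, 930 bp long, beside H3.3-HA regions in both libraries. In intron 4 and intron 18 cKO replicate 2 kept regions of 501 and 629 bp where both WT libraries had 1058 to 2272 bp. The central 300 bases of the intron 1 region, which carried H3K27ac in both WT libraries, read on the plus strand:
Mertk intron 1 region (chr2:128709703-128710002, plus strand): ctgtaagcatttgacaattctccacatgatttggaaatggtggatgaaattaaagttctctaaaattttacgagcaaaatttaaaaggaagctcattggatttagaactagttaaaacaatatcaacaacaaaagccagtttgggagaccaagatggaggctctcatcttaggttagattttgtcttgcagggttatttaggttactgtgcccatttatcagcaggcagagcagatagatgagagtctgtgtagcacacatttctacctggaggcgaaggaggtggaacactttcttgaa
No base is in capitals because none of the 4 motifs was found in these letters. Among 89774 merged H3K27ac regions, 11% held the interferon element, 27.8% the ETS core, 11.7% the AP-1 site and 5.83% the GC box in their central 300 bases.

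H3K36me3 over Mertk gave no such separation. Its coverage was 61.5% and 68.0% in WT, 33.8% in cKO replicate 1 and 75.1% in cKO replicate 2. The cKO values lay on both sides of the WT values, with 64.8% ± 4.55 in WT and 54.5% ± 29.3 in cKO (mean ± SD, n = 2). The difference of -10.3 points became 10.4 points without cKO replicate 1, so its sign rests on that library. Of 14 merged regions 6 were called in all 4 libraries, among them chr2:128747672-128772786 and chr2:128774363-128804137 in the second part of the gene, and none was gained or lost.

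**Figure D3:**
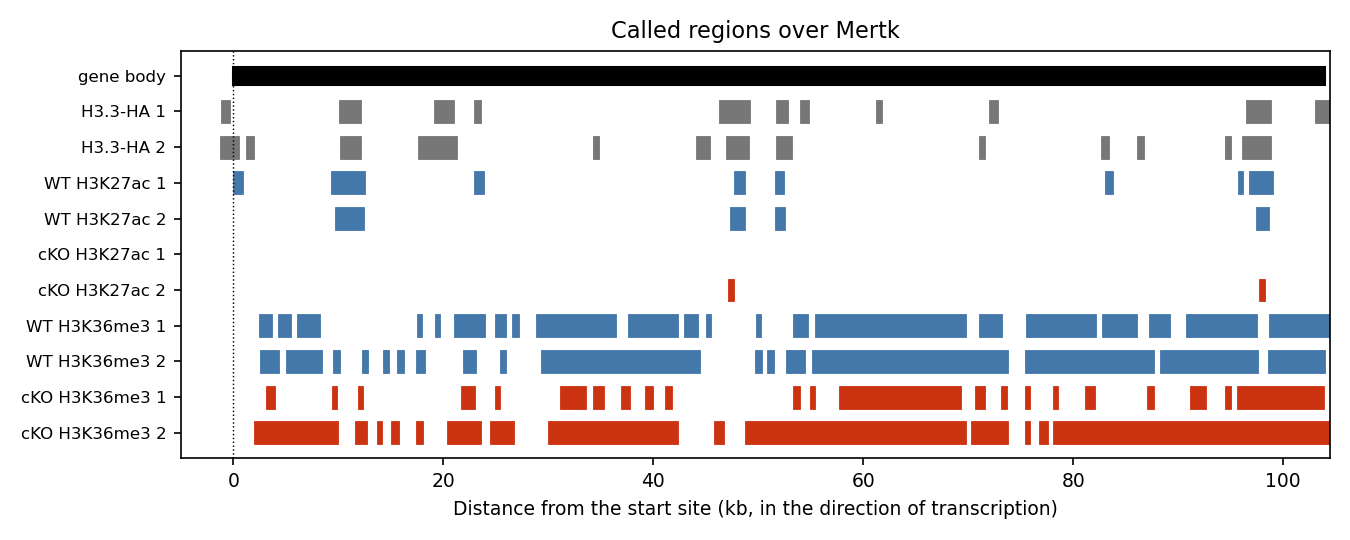
Regions called over Mertk in each library, by distance from the start site in kb (x axis) and library (y axis, numbers are replicates), with the gene body in black. H3K27ac boxes number 8 and 4 in WT and 0 and 2 in cKO, while H3K36me3 boxes run along the gene in all 4 libraries.

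Side by side, Axl and Mertk differed in direction for H3K27ac and in starting level for H3K36me3. In WT cells Mertk had H3K36me3 over most of its body and Axl had none. In cKO cells H3K27ac regions crossed the start site of Axl in both libraries, and the Mertk start site had none in either. H3.3-HA covered similar parts of both windows in its 2 libraries, 10.6% and 18.0% at Axl and 13.9% and 17.5% at Mertk, so the ranges overlapped. The H3.3-HA bases were placed differently against H3K27ac: at Mertk 85.7% of the bases with H3K27ac in both WT libraries (5108 of 5958 bp) also had H3.3-HA in both libraries, against 61.3% at Axl, where only 501 bp had H3K27ac in both WT libraries. Tyro3, the remaining TAM receptor, had no region of either mark in any library and an H3.3-HA region in 1 library.

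The nearest protein-coding genes did not follow Axl. Hnrnpul1, 2.5 kb beyond the end of Axl, had H3K27ac coverage of 22.7% and 16.1% in WT and 6.63% and 13.6% in cKO. Its H3K36me3 coverage was 76.3% and 77.2% in WT and 69.6% and 78.6% in cKO. Cyp2s1, 13.8 kb upstream of Axl, had no region of either mark. The neighbours of Mertk had lower H3K27ac coverage in both cKO libraries, as Mertk did. Anapc1 had 20.8% and 12.2% in WT against 4.51% and 2.67% in cKO, and Tmem87b 49.5% and 32.8% against 6.27% and 7.69%. The genes whose 10 coverage values lay nearest to those of Axl, by Euclidean distance among 8846 genes with a window within 2-fold of its length, included Kif22 (22.2 points) and Ska2 (23.2). For Mertk, among 4135 genes, they were Trappc10 (13.6), Ulk2 (15.1) and Mon2 (18.8).

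Gas6 and Pros1, the TAM ligands, both had less H3K27ac in cKO and differed in H3K36me3. Gas6 spans chr8:13465374-13494490 on the minus strand. H3K27ac covered 22.5% and 8.49% of its window in WT and 0% in both cKO libraries, a difference of -15.5 points, which was -8.49 points without WT replicate 1 and -9.53 points with regions of at least 1 kb. The lost H3K27ac regions numbered 3 and all had their midpoint in intron 2, at chr8:13493376-13494042 next to the start site, chr8:13488839-13491175 and chr8:13484788-13487524. The last of these was 2737 bp long in WT replicate 1 and 630 bp in WT replicate 2, and the latter pair of regions overlapped H3.3-HA in both libraries. A region called in all 4 H3K27ac libraries at chr8:13499316-13505564 touches the upstream end of the window in WT alone, and lies at the neighbouring gene Tmem255b.

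H3K36me3 over Gas6 covered 65.3% and 76.8% of the window in WT and 72.6% and 81.8% in cKO, so the groups overlapped. It formed a single merged region (chr8:13462959-13493274, 30316 bp) called in all 4 libraries. Gas6 thus had H3K36me3 regions along its body in both cKO H3K36me3 libraries, while neither cKO H3K27ac library had a region over its window. H3.3-HA covered 18.3% and 24.5%, mostly toward the end of the gene, where the bases with H3.3-HA in both libraries lay in H3K36me3 regions of both WT libraries for 86.8% of their length.

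Pros1, which encodes protein S, spans chr16:62854307-62929346 on the plus strand. H3K27ac covered 5.05% and 3.05% of its window in WT and 0.626% and 1.99% in cKO, a difference of -2.74 points. This was -1.41 points with lists of equal length, -1.42 points with 20 kb on both sides, -1.72 points with regions of at least 1 kb and -1.74 points without WT replicate 1. A region at the start site (chr16:62854212-62855183), with 501 and 627 bp in WT, was lost. A second region in intron 1 (chr16:62855790-62858326) was called in all 4 libraries but was shorter in cKO, with 2537 and 1811 bp in WT and 501 and 1596 bp in cKO. This intron 1 region also held H3.3-HA in both libraries, and every base with H3.3-HA in both lay within H3K27ac regions of both WT libraries.

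Pros1 showed the lower H3K36me3 coverage that Gas6 did not. Coverage was 18.0% and 20.3% in WT, 0% in cKO replicate 1 and 0.626% in cKO replicate 2. The WT regions lay 30.9 kb and more after the start site, and 6 merged regions were lost, the longest at chr16:62902613-62907193 with 4581 and 3061 bp in WT. The difference was -18.9 points (19.2% ± 1.64 in WT and 0.313% ± 0.443 in cKO, mean ± SD, n = 2). It did not rest on the sparse cKO replicate 1, since replicate 2, whose list covered 163.5 Mb, had 1 region of 501 bp over the gene.

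**Figure D4:**
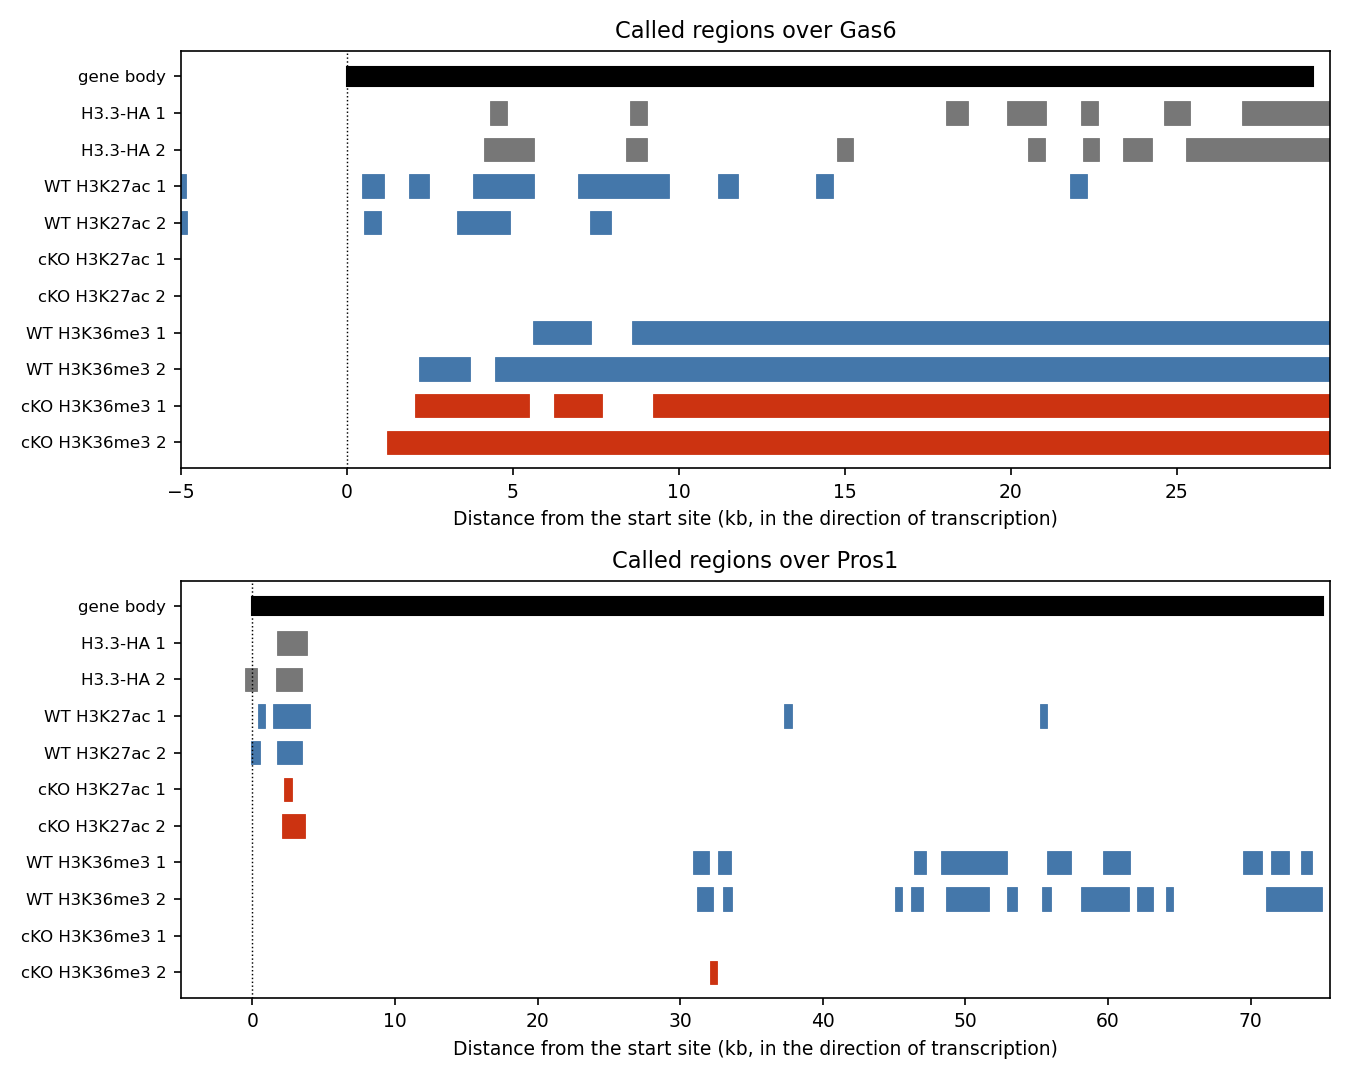
Regions called over Gas6 and Pros1 in each library, by distance from the start site in kb (x axis) and library (y axis, numbers are replicates), with the gene body in black. Gas6 has no H3K27ac box in cKO and long H3K36me3 boxes in all 4 libraries; Pros1 has H3K36me3 boxes in WT and 1 in cKO replicate 2.

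The integrin arm held the gene with the highest H3.3-HA coverage of the 8 and a gene with none. Itgav, the αv integrin subunit (chr2:83724397-83806916, plus strand), had H3K27ac coverage of 33.2% and 19.3% in WT and 17.4% and 14.4% in cKO. The groups did not overlap, but WT replicate 2 lay nearer to cKO replicate 1 than to WT replicate 1. The difference of -10.3 points was -3.40 points without WT replicate 1, -17.3 points without WT replicate 2 and -6.57 points with 20 kb on both sides. The merged region around its start site (chr2:83721364-83731142) was called in all 4 libraries with 8226 and 6845 bp in WT and 9399 and 9109 bp in cKO. The start site itself was covered in the cKO libraries only. WT calls ended at -56 and -263 bp from it and resumed at 503 and 327 bp, in replicates 1 and 2. The lower coverage of the window thus lay outside this merged region, mostly in introns. An intron 2 region called in all 4 libraries had 7057 and 4562 bp in WT and 2728 and 2991 bp in cKO. In other introns 4 regions were lost, and the longest region called in WT replicate 1 only had 3070 bp. H3K36me3 covered 77.9% and 75.2% in WT and 74.4% and 90.6% in cKO, in 2 merged regions called in all 4 libraries. H3.3-HA covered 26.2% and 34.7% of the Itgav window.

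Mfge8, the bridging protein (chr7:79133768-79149060, minus strand), had no H3K27ac and no H3.3-HA region in any library. H3K36me3 covered 7.41% and 10.6% of its window in WT and 0% in both cKO libraries. The lost regions numbered 2, at chr7:79134990-79137108 (501 and 1645 bp in WT) and chr7:79144746-79145277 (501 bp in each). In the first, the calls of WT replicates 1 and 2 (chr7:79134990-79135490 and chr7:79135464-79137108) overlapped only at their ends. Most calls in these lost regions were of the shortest length in the lists. The first region alone reached 1 kb, in 1 WT library, so with regions of at least 1 kb the Mfge8 groups overlapped. The difference was -8.99 points, -4.05 points with regions of at least 1 kb or lists of equal length, and -3.30 points with 20 kb on both sides. Lost H3K36me3 regions were thus found at Pros1 and Mfge8, 2 of the 6 genes with a region, against 23.6% of all genes.

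The direct phosphatidylserine receptors had few regions. Timd4, the TIM-4 receptor of resident macrophages (chr11:46810800-46844332, plus strand), had a single H3K27ac region of 501 bp in intron 8 in WT replicate 1 and was at 0% in the other 9 libraries. Stab2, the scavenger receptor stabilin-2 known best from sinusoidal endothelium (chr10:86841198-87008025, minus strand), had H3K27ac coverage of 2.79% and 1.54% in WT and 0.292% and 0.365% in cKO, a difference of -1.84 points that was -1.21 points without WT replicate 1. These regions lay deep in the gene, with 1 lost in intron 44 (chr10:86881082-86882204) and 1 called in all 4 libraries in intron 42 (chr10:86885997-86887313), and none was at the start site. Stab2 had no H3K36me3 region, and H3.3-HA regions in replicate 1 only.

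Lost H3K27ac regions numbered 11 over 5 of the 7 genes with a region, against 37.3% of all genes that held a lost region. H3.3-HA was present in both libraries at the windows of 5 of the 8 genes, Axl, Mertk, Gas6, Pros1 and Itgav, against 44.2% of all 21938 genes. Of the 11 lost H3K27ac regions, 9 overlapped an H3.3-HA region in at least 1 library and 5 in both. All 5 H3K27ac regions called in all 4 libraries overlapped H3.3-HA in at least 1 library and 4 in both, and the single gained region in neither. These 5 include the region at Tmem255b that touches the Gas6 window in WT alone. Its overlap with H3.3-HA was taken over its whole length, most of it outside the window. None of the 8 lost H3K36me3 regions overlapped H3.3-HA. Of the 9 called in all 4 libraries, 8 overlapped it in at least 1 library and 6 in both. At Mertk (chr2:128700897-128709066) the overlap was 8 bp in H3.3-HA replicate 1 alone. The regions called in all 4 libraries are much longer than the lost ones (195366 bp in all against 18658 bp). Regions of a gene are not independent, and longer regions meet more of any other list.

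Among 37 other genes of efferocytosis, 32 had an H3K27ac region, of which coverage was higher in both cKO libraries at 7 and lower at 19, with a median difference of -4.12 points over those 32, beside -1.02 points over all genes. The 6 with the largest higher values were Cd300a and Cd300lf, which encode phospholipid-binding receptors (21.9 and 8.10 points), Socs1 and Ppard, a suppressor of cytokine signalling and a lipid-sensing nuclear receptor (13.1 and 4.41), the TIM-3 gene Havcr2 (7.03) and the chemokine receptor gene Cx3cr1 (5.54). The 6 with the largest lower values were the scavenger receptor gene Msr1 (-43.1 points), the complement genes C1qb (-40.6) and C1qc (-27.5), Anxa1 (-39.5), the sheddase gene Adam17 (-31.4), whose product cleaves Mertk, and Sirpa, the receptor for the CD47 signal (-25.2). Without cKO replicate 2 the difference was 10.3 points at Cd300a, 1.95 at Cx3cr1, -18.3 at C1qb and -11.3 at C1qc, and without cKO replicate 1 it was 33.5, 9.13, -62.8 and -43.6 points. The windows of C1qb and C1qc overlap a neighbouring C1q gene, and the Cx3cr1 window holds 5 other genes. Those of Cd300lf (Rab37), Socs1 (Tnp2 and Prm3), Ppard (Def6) and Adam17 (Iah1) also overlap other genes. The share of genes with higher H3K27ac in this list, 7 of 32, lay near the 17.4% of all genes, and that with lower H3K27ac, 19 of 32, above the 38.2%.

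H3K36me3 regions were found at 32 of these 37 genes, with coverage higher in both cKO libraries at 10 and lower at 9, beside the 7.85% and 37.7% of all genes. The median difference was -1.33 points, beside -4.99 points over all genes. The 6 largest higher values were at Cd300lf (53.6 points), Cd300lb (21.6), Cd36 (13.7), Sirpa (11.6), Lrp1 (10.9) and Stab1 (10.8). The 6 largest lower values were at Thbs1 (-37.5 points), P2ry2 (-33.6), Scarf1 (-24.0), Pparg (-17.4), Ppard (-15.6) and Rxra (-14.8). Of these windows, those of Cd300lf (Rab37), Stab1 (Nt5dc2 and Nisch), Scarf1 (Prpf8 and Rilp) and Ppard (Def6) overlap other genes. Without cKO replicate 1 the difference was -21.2 points at P2ry2, -7.09 at Scarf1 and -8.68 at Ppard, and without cKO replicate 2 it was -40.9 points at Scarf1 and 7.09 at Sirpa. Higher coverage of both marks in both cKO libraries, the pattern of Axl, was also seen at Cd300a and Cd300lf. Outside these genes it was seen at the macrophage marker Cd68 and at H3f3b, and its share among all genes was not computed. At Stab1, Cd36, Cd300lb, C1qb, Anxa1 and Sirpa H3K27ac coverage was lower and H3K36me3 coverage higher in both cKO libraries.

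**Figure D5:**
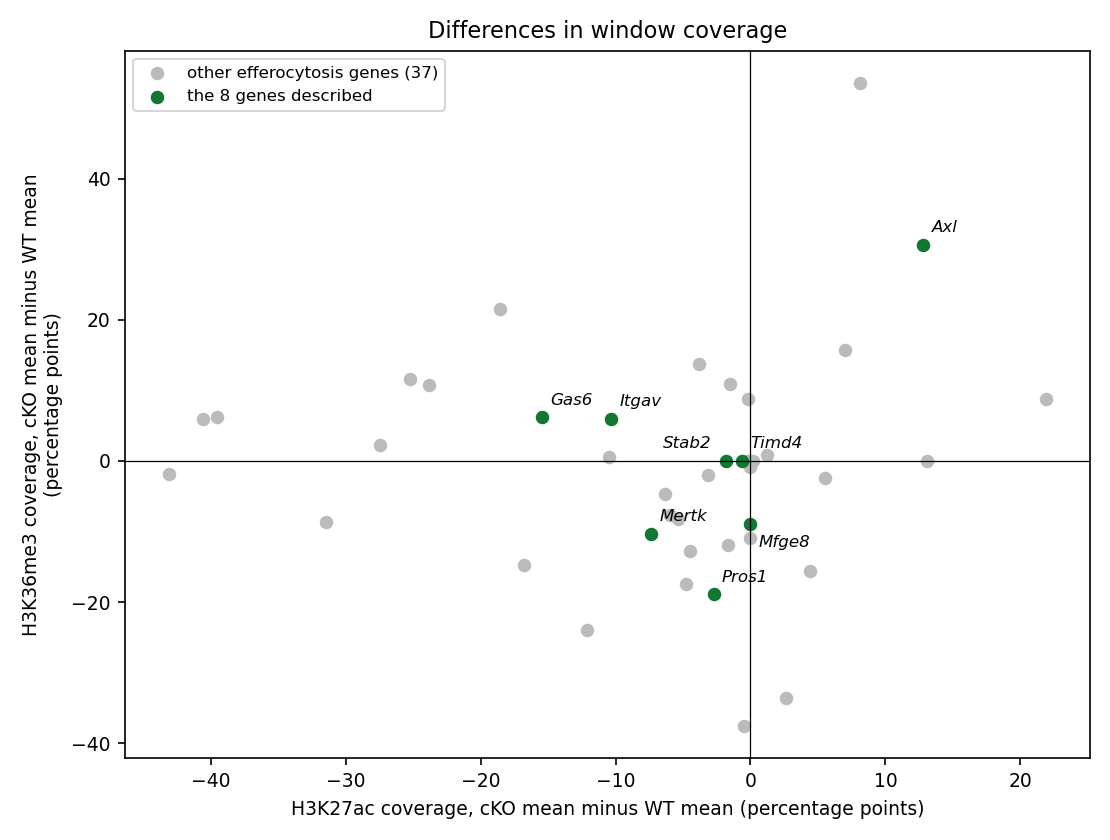
Difference in window coverage, cKO mean minus WT mean in percentage points, for H3K27ac (x axis) and H3K36me3 (y axis), with 1 point per gene: the 8 genes described in green with their names and 37 other efferocytosis genes in grey. Axl lies at 12.8 and 30.7 points, and the other 7 named genes lie at or below 0 for H3K27ac.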

How the data were processed

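CUT&RUN reads (paired-end) were aligned by the authors to mm10 with Bowtie2 in local mode, and regions were called by the authors per library with HOMER in histone style. Per the file headers, peaks of 500 bp at a minimum distance of 1000 bp passed a 4-fold enrichment over IgG, a Poisson p-value of 1.00e-04 over control and over the local 10000 bp, and a p-value threshold of 1e-03, and were stitched. The deposited lists hold region coordinates and a constant score, so no signal, fold or p-value per region was used. Total tags were read from the headers.

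Genes came from GENCODE M21. Python 3.11.15 and numpy 2.4.6 computed the percent of each window covered by each list, and figures used matplotlib 3.10.9. The 4 lists of a mark were merged and regions counted as gained or lost at 1 bp of overlap. A region was placed by its midpoint. The share of all genes meeting each rule stands beside the counts. Named genes were the 8 genes, at most 6 other efferocytosis genes per mark and direction by size of difference, the nearest genes and the 3 most alike, of which some are not reported here. The members and lists were chosen with earlier results of these data known. The code was tested on simulated lists. Motif searches used RefSeq promoters and the GRCm38.p6 genome, the same assembly as mm10. The alternatives were other windows, regions of at least 1 kb, lists of equal length, number of regions, 50% overlap and leaving out each library.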

Additional observations from a re-analysis of the deposited data

How the results depend on the processing

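No paired analysis was possible, since no test was run and the labels do not link WT replicates to cKO replicates. Differences by replicate number are given as values only. Among the 8 genes, no coverage difference that separated the genotypes changed sign under the alternatives run. Leaving out a library could not change such a sign, since both cKO values lay on the same side of both WT values. For the other efferocytosis genes named, leaving out each library was the only alternative, added after seeing the data. These genes were named because their groups did not overlap, so it could change no sign, only the size of a difference. With 20 kb on both sides of the gene, the Axl H3K27ac difference was 5.57 points and gained H3K27ac regions were found at 3 genes (Axl, Itgav, Mertk). By number of regions, 0 genes had more H3K27ac in both cKO libraries. With regions of at least 1 kb, and likewise with lists of equal length, lower H3K36me3 coverage and lost H3K36me3 regions were each found at 1 gene, Pros1, and Mfge8 no longer counted. With lists of equal length, gained H3K36me3 regions were found at 2 genes (Axl, Mertk), and of all genes 25.0% had higher and 31.3% lower H3K27ac coverage in both cKO libraries. Leaving out each library in turn, the Axl H3K36me3 difference ran from 7.98 to 53.3 points and the Mertk one from -31.0 to 10.4 points. Gained H3K27ac regions were found at 1 to 2 genes and gained H3K36me3 regions at 1 to 2. Higher H3K36me3 coverage was found at 1 to 4 genes (4 without cKO replicate 1: Axl, Mertk, Gas6, Itgav) and lower at 2 to 4 (4 without cKO replicate 2: Mertk, Pros1, Mfge8, Itgav). Over all alternatives, lower H3K27ac coverage was found at 5 or 6 genes and lost H3K27ac regions at 4 to 7. The measure is a percent of the window, so with 20 kb on both sides the same regions cover a smaller percent of a longer window. Beyond this, the cause of these shifts was not tested. Region calls depend on depth, and a region missed in a library can differ little in signal from a called region.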
